A study of Homo sapiens with 4 samples.

Results

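Chaperones bind proteins that are not yet folded or have lost their fold, and they were examined here as 44 genes of the cytosol and mitochondria, chosen by name from known families and not by their measured values, out of 19729 genes in the deposited tables. RNA came from HT-29, a microsatellite-stable human colorectal cancer line with BRAF-V600E and mutant APC, which had been stably transduced with lentivirus carrying a doxycycline (DOX)-inducible shRNA. The shRNA was directed against APC (APC shRNA) or was non-silencing (NonS), and both conditions received 500 ng/ml DOX for 72 h, so DOX and the transduction were common to all libraries. APC is a subunit of the complex that marks β-catenin for degradation, and its silencing was used to raise Wnt signaling in cells that already carry a truncated APC. Polyadenylated RNA of biological duplicates, named replicates I and II, gave 4 libraries, and the tests below measure only the spread between these libraries of 1 cell line.

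In the cytosol, HSP70 proteins take up exposed hydrophobic stretches in a cycle driven by ATP, which J-domain proteins start and nucleotide exchange factors reset. HSP90 finishes the folding of kinases and hormone receptors with its own set of co-chaperones, and prefoldin passes newly made actin and tubulin to the ring-shaped chaperonin TRiC. Mitochondria hold a related set, namely mortalin (HSPA9), the HSP60 and HSP10 chaperonin (HSPD1 and HSPE1) and the HSP90 relative TRAP1, while the transcription factor HSF1 induces many cytosolic members under heat and other protein stress by binding heat shock elements.

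Sequence is shown where it bears on how the members can be read. HSPA1A and HSPA1B, the stress-inducible HSP70 genes, are near-identical neighbours on chromosome 6, and their upstream stretches, at positions -186 to -84 and -185 to -83 relative to their RefSeq starts, shared 99 of 103 bases. Capitals mark a heat shock element core, searched as GAANNTTC or TTCNNGAA, both of which read the same on either strand. HSP90AA1, the inducible HSP90 gene, is shown because it had the lowest member difference, and its 30 bases hold 3 cores of which the first pair overlap. The divergent genes HSPD1 and HSPE1 have 104 bases between their RefSeq starts, 197500274 and 197500379 on chromosome 2, and 30 of these bases are shown with an E-box, CACGTG, in capitals. The 250 bases before another RefSeq start of HSP90AA1 hold 0 cores, and those before another start of HSPD1 hold 3 cores and 0 E-boxes. In the printed HSP90AA1 and HSPD1-HSPE1 stretches 0 bases lie outside annotated exons. All sequences are RefSeq's on GRCh38.p14.
HSPA1A (chr6:31815357-31815459, plus strand): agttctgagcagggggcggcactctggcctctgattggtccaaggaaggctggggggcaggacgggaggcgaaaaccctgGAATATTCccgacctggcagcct
HSPA1B (chr6:31827553-31827655, plus strand): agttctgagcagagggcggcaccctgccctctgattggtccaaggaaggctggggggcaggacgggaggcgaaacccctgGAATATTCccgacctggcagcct
HSP90AA1 (chr14:102087104-102087133, minus strand): cTTCCGGAAGGTTCgggaggcTTCTGGAAa
HSPD1-HSPE1 (chr2:197500345-197500374, plus strand): gggtgattttttCACGTGtcgccagggccg
Windows of 250 bases before a start were available for 37 of the 44 members. A heat shock element core lay in such a window of 14 members (37.8%), compared with 13.96% of 27305 genes. The E-box lay in windows of 3 members, HSPA9, HSPD1 and HSPE1, or 8.11% compared with 7.73% of all genes. The printed E-box between HSPD1 and HSPE1 lies in the windows of both genes and is counted for each. The core and the E-box share no bases in the stretches printed.

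The deposited values were whole numbers of unstated scale, treated as scores and not as read counts, so depth in reads cannot be given. The 2 values of a condition are given below in the order replicate I, replicate II. The values of each library summed to between 398338 and 413595. Multiplied by the length of the longest transcript in kb, they summed to between 980841 and 984873, close to a fixed total, and comparisons of level between genes below rest on the inference that the score is per length. Epithelial markers were present, as the summed value of 9 of them, led by KRT18 and KRT8, was between 3819 and 4574, although CDX1 was listed at 0 in both APC shRNA libraries and CDX2 in both NonS libraries. The sum hides differences in both directions. LGALS4 had NonS values of 557 and 646 and APC shRNA values of 175 and 147, and those of KRT18 were 1550 and 1796 against 2061 and 2083. The markers of fibroblasts and endothelium were listed at 0 in every library, as were the leukocyte markers PTPRC and CD3E, while CD68 was listed at 3 to 6. APC had a value of 3 in NonS replicate I and of 0 in the other 3 libraries, so its difference rests on 1 library. AXIN2, a direct Wnt target, had NonS values of 16 and 22 and APC shRNA values of 124 and 178. Replicates I and II stood apart in some genes with AT-rich transcripts, and the members touched by this are named with their values below.

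In the main fit, which left the replicate numbers unpaired, few chaperone genes differed between conditions beyond the spread between libraries. Of the 44 members, 43 had a mean value of at least 10 and were tested in limma on log2(value + 1) among 5376 genes, and 1 rose and 1 fell at an adjusted p under 0.05 (Benjamini-Hochberg over all genes tested). The genes were UNC45A, which rose, and DNAJA3, which fell. Adjusted p-values from limma went no lower than 0.0423 across the table, so every call in this fit lay close to the threshold. AXIN2, with a difference of 2.92, had the same adjusted p as UNC45A (0.0452 in limma). These adjusted p-values therefore do not grade the called genes by size of difference. Among all genes tested 4.33% rose and 3.70% fell, 8.04% in all, so the members' counts are not above the background. With the replicate number as a block, 2 members rose and 4 fell, compared with 9.73% and 9.30% of all genes tested. Before adjustment 8 of the 43 members had a p under 0.05, compared with 35.6% of all genes tested. In 9 members both APC shRNA values exceeded both NonS values and in 10 both were lower, compared with 33.0% and 27.5% of all genes tested (60.5% in all), and the groups overlapped in the other 24 members. The median difference of the members was -0.09 on the log2(value + 1) scale and that of all genes tested 0.03. No member differed by more than 2-fold on this scale, as 283 genes of the table did, and 3 members (6.98%) differed by more than 1.5-fold, compared with 17.8% of all genes tested. HSP90AA1 came nearest to 2-fold at -0.99, and passed it with upper-quartile scaling (-1.026) and equal totals (-1.019). In RNA of whole cultures, fewer cells of a kind and less RNA per cell cannot be told apart.

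UNC45A, a chaperone of the HSP90 group that folds myosin heads, rose. The gene lies on chromosome 15 from 90930180 to 90954093 (GRCh38). Its NonS values were 26 and 27 and its APC shRNA values 38 and 38. All values of a condition thus lay within 1 unit of each other, and the conditions did not overlap. The difference was 0.50 (standard error 0.052, adjusted p = 0.0452 in limma), or 1.43 times as a ratio of means. With each library left out in turn the difference stayed between 0.48 and 0.53, but no gene of the table passed the threshold, and the adjusted p of UNC45A was between 0.152 and 0.208. UNC45A shares 1334 of its 7498 exonic bp with HDDC3 on the opposite strand, and the strand option of the counting is not given in the sources used here.

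DNAJA3 (TID1), the J-domain partner of mortalin in mitochondria, fell. The gene lies on chromosome 16 from 4425805 to 4456775. Its NonS values were 37 and 35 and its APC shRNA values 26 and 25. The replicates lay within 2 units of each other and the conditions did not overlap. The difference was -0.48 (standard error 0.061, adjusted p = 0.0487 in limma), a ratio of means of 0.708. Without 1 library it was between -0.52 and -0.44, with an adjusted p between 0.168 and 0.211. The call was also lost when genes had to reach 10 in every library (adjusted p = 0.0527).

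Mitochondrial chaperones were the subgroup with the lowest median difference, at -0.36. All 6 had a negative difference, as did 2534 of the 5376 genes tested, and were lower within replicate I and within replicate II, as were 1985 genes. The signs held in every scaling tried. Only DNAJA3 was called. In 4 of the 6, DNAJA3, HSPD1, TRAP1 and GRPEL1, both APC shRNA libraries lay below both NonS libraries, compared with 27.5% of all genes tested. The 6 genes together reached 903 and 682 under NonS and 649 and 503 under APC shRNA. Replicate II was below replicate I in all 6 genes in both conditions, and the summed value of NonS replicate II was close to that of APC shRNA replicate I.

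HSPD1, the barrel of the HSP60 chaperonin, had the highest value of the 6 in every library. Its NonS values were 418 and 279 and its APC shRNA values 262 and 162. Both APC shRNA values were the lower ones, and their log2(value + 1) lay apart from that of NonS by -0.67 within replicate I and -0.78 within replicate II, while replicate II minus replicate I was -0.58 in NonS and -0.69 in APC shRNA. The difference over all libraries was -0.73 (standard error 0.36, 95% confidence interval -1.85 to 0.40, adjusted p = 0.251 in limma). HSPE1, the lid of the same chaperonin, had NonS values of 200 and 154 and APC shRNA values of 156 and 141. Its conditions overlapped, and its difference was -0.24 (standard error 0.17, interval -0.76 to 0.28, adjusted p = 0.373 in limma). The exons of HSPD1 and HSPE1 overlap by 281 bp on opposite strands. Of all stretches of 50 bases, the read length, 24.8% in HSPD1 and 27.2% in HSPE1 also occur in transcripts of other genes, mostly the pseudogene HSPD1P1 and the readthrough HSPE1-MOB4, so both values are uncertain.

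TRAP1, the mitochondrial HSP90, had NonS values of 85 and 75 and APC shRNA values of 62 and 51. These did not overlap, but the difference of -0.50 had an adjusted p of 0.116 in limma. TRAP1 shares 1531 exonic bp with DNASE1 on the opposite strand. HSPA9, or mortalin, which pulls proteins through the inner membrane and folds them, had NonS values of 134 and 114 and APC shRNA values of 119 and 102. GRPEL1, the nucleotide exchange factor of mortalin, had NonS values of 29 and 25 and APC shRNA values of 24 and 22. The values of HSPA9 overlapped and those of GRPEL1 were separated by 1 unit, with adjusted p = 0.444 and 0.241 in limma.

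**Figure D1:**
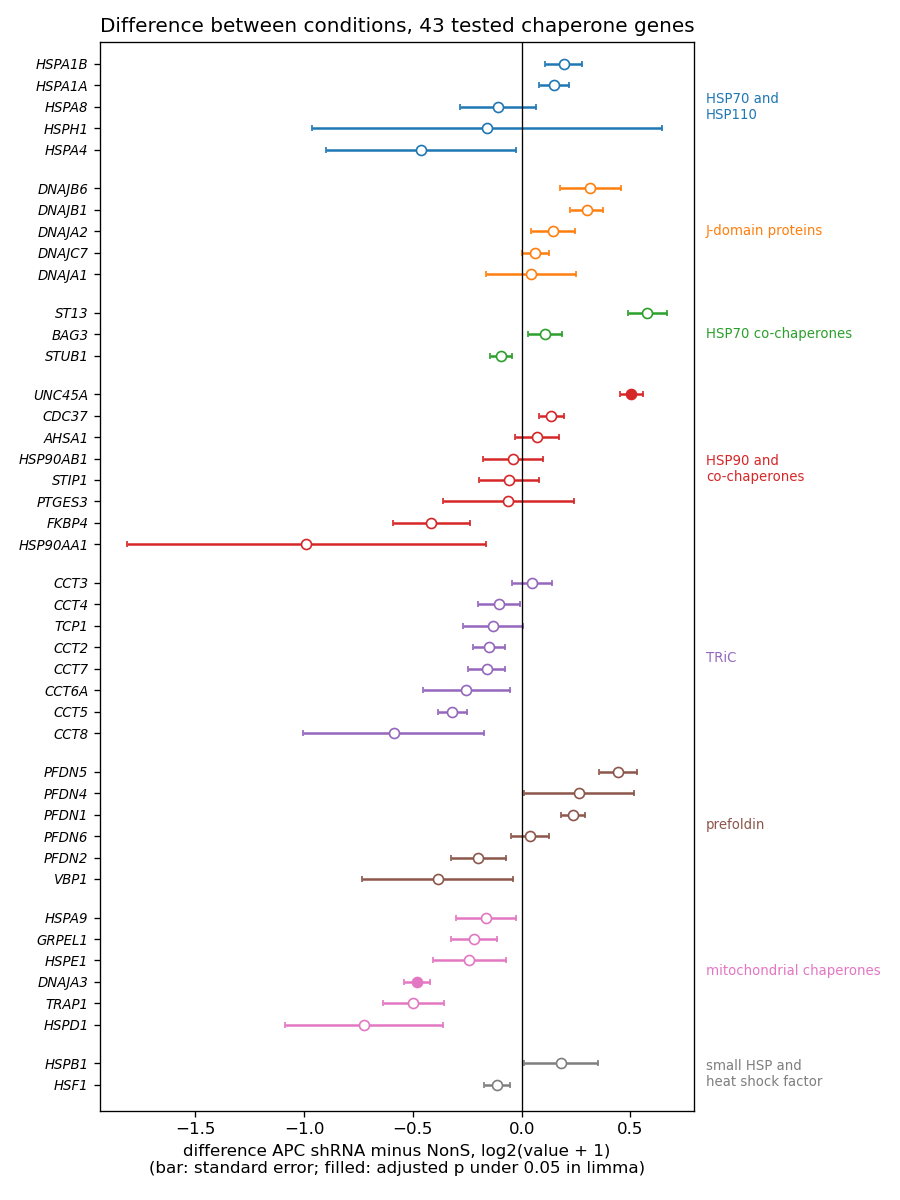
Difference between APC shRNA and NonS on the log2(value + 1) scale for the 43 tested chaperone genes by family, with standard errors from limma as bars and filled points where the adjusted p was under 0.05. UNC45A (0.50) and DNAJA3 (-0.48) are the filled points, all 6 mitochondrial genes lie left of 0 and all 5 genes of cytosolic J-domain proteins right of it, and the bars are longest in HSP90AA1 and HSPH1.

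Genes of the HSP70 and HSP110 group gave 0 calls among 5 tested in limma, and 0 had an unadjusted p under 0.05. Their median difference was -0.11, whereas the only members whose conditions did not overlap were HSPA1A and HSPA1B. In these 2 both APC shRNA libraries were higher, as in 33.0% of all genes tested. The median was 0.10 without NonS replicate I and 0.11 without APC shRNA replicate II. HSPA1A had NonS values of 125 and 133 and APC shRNA values of 139 and 147. HSPA1B had NonS values of 128 and 134 and APC shRNA values of 142 and 158. The difference was 0.15 for HSPA1A (standard error 0.070, interval -0.07 to 0.36, adjusted p = 0.236 in limma) and 0.19 for HSPA1B (adjusted p = 0.214). Of all stretches of 50 bases, the read length, 72.6% in HSPA1A and 73.5% in HSPA1B also occur in the other copy or in another gene, so how reads were divided between the copies is not known and the pair is no independent repeat. HSPA8, the constitutive HSC70, had NonS values of 660 and 523 and APC shRNA values of 596 and 498. Its conditions overlapped, and its difference was -0.11 (standard error 0.18, interval -0.66 to 0.44, adjusted p = 0.681 in limma).

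The HSP110 proteins HSPA4 and HSPH1, which exchange the nucleotide of HSP70, differed more between replicates than between conditions. HSPA4 had NonS values of 54 and 38 and APC shRNA values of 46 and 23, a difference of -0.46 (standard error 0.44, adjusted p = 0.492 in limma). HSPH1 had NonS values of 53 and 19 and APC shRNA values of 47 and 17. In HSPH1 replicate II was far below replicate I in both conditions, and the difference between conditions, -0.16, had an interval from -2.66 to 2.33 (adjusted p = 0.898 in limma).

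The cytosolic J-domain proteins, which hand substrates to HSP70, had positive differences in 5 of 5 genes, with a median of 0.14. Of the 5376 genes tested, 2827 had a positive difference. The signs of the 5 held in every scaling tried, with DNAJA1 at 0.008 in upper-quartile scaling. DNAJA1 turned to -0.12 without NonS replicate II and to -0.15 without APC shRNA replicate I. DNAJA3, the J-domain protein grouped with the mitochondrial chaperones, fell. None of the 5 was called in limma, and 1, DNAJB1, had an unadjusted p under 0.05. DNAJB6, which keeps aggregation-prone proteins soluble, had NonS values of 24 and 26 and APC shRNA values of 28 and 35. Its difference was the highest of the subgroup at 0.31 (standard error 0.14, adjusted p = 0.219 in limma). DNAJB1 (HSP40), a class B partner of HSP70, had NonS values of 32 and 31 and APC shRNA values of 37 and 41, a difference of 0.30 with an adjusted p of 0.104 in limma. In DNAJB1 and DNAJB6 the conditions did not overlap, with the APC shRNA libraries higher, as in 33.0% of all genes tested. The class A proteins DNAJA1 and DNAJA2 had NonS values of 113 and 90 (DNAJA1) and of 17 and 18 (DNAJA2), and APC shRNA values of 119 and 91 and of 18 and 21. DNAJC7, which binds HSP70 and HSP90 through its repeats, had NonS values of 32 and 33 and APC shRNA values of 35 and 33. These 3 overlapped between conditions, with adjusted p from limma of 0.889, 0.376 and 0.4998.

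Among the HSP70 co-chaperones 0 of 3 were called in limma and 1, ST13, had an unadjusted p under 0.05. ST13 (HIP), which holds HSP70 in its substrate-binding state, had NonS values of 50 and 44 and APC shRNA values of 72 and 69. Its conditions were well apart, and it had the highest difference of all members, 0.58 (standard error 0.091, adjusted p = 0.0596 in limma), or 1.5 times as a ratio of means. Its adjusted p in limma was under 0.05 with median-of-ratios scaling (0.0454), equal totals (0.0495), robust moderation (0.0355) and a GC content correction (0.0174), and between 0.181 and 0.250 when any 1 library was dropped. Of its 50-base stretches 30.7% occur in 17 other genes, led by the pseudogene ST13P4. BAG3, an exchange factor that steers clients to autophagy, had NonS values of 20 and 18 and APC shRNA values of 21 and 20 (adjusted p = 0.397 in limma). STUB1 (CHIP), a ubiquitin ligase that marks chaperone clients, had NonS values of 46 and 47 and APC shRNA values of 44 and 43 (adjusted p = 0.287 in limma). BAG3 overlapped between conditions, and STUB1 was lower in both APC shRNA libraries by 2 to 4 units. STUB1 shares 983 exonic bp with JMJD8 on the opposite strand.

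The HSP90 group held the most abundant member, HSP90AB1, which ranked 68 among the 5376 genes tested by mean value. Its median difference was -0.05 over 8 tested genes, although its only call, UNC45A, was a rise. The median was 0.090 without NonS replicate I, 0.070 without APC shRNA replicate II and -0.15 without NonS replicate II. HSP90AB1, the constitutive HSP90, had NonS values of 764 and 649 and APC shRNA values of 737 and 636. The conditions overlapped, and the difference was -0.04 (standard error 0.14, interval -0.46 to 0.38, adjusted p = 0.846 in limma). HSP90AA1, the inducible HSP90 whose 3 cores are printed above, had NonS values of 319 and 146 and APC shRNA values of 198 and 59. It had the lowest difference of all members, -0.99 (standard error 0.82, interval -3.54 to 1.57, adjusted p = 0.443 in limma), but NonS replicate II lay below APC shRNA replicate I. Other transcripts share 17.5% of the 50-base stretches of HSP90AA1 and 18.8% of those of HSP90AB1.

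Co-chaperones of HSP90 had differences in both directions, and UNC45A was the only one called in limma. FKBP4 (FKBP52), an immunophilin of steroid receptor complexes, had NonS values of 63 and 51 and APC shRNA values of 47 and 38, a difference of -0.42 (adjusted p = 0.208 in limma). CDC37, which brings kinases to HSP90, had NonS values of 63 and 66 and APC shRNA values of 72 and 70, a difference of 0.14 (adjusted p = 0.211 in limma). In these 2 genes the conditions did not overlap, with FKBP4 lower and CDC37 higher in APC shRNA libraries, as were 27.5% and 33.0% of all genes tested. STIP1 (HOP), the bridge between HSP70 and HSP90, had NonS values of 123 and 109 and APC shRNA values of 122 and 101. AHSA1, which speeds the ATPase of HSP90, had NonS values of 54 and 47 and APC shRNA values of 55 and 51. Both overlapped, with adjusted p = 0.771 and 0.642 in limma. PTGES3 (p23), which holds HSP90 closed, had NonS values of 182 and 138 and APC shRNA values of 122 and 189, so the order of the conditions turned between replicate numbers (adjusted p = 0.896 in limma). CHORDC1, an HSP90-binding protein, had NonS values of 7 and 2 and APC shRNA values of 4 and 2, and with a mean under 10 it was not tested.

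TRiC folds actin and tubulin with a ring of different subunits, and 7 of its 8 genes were lower in APC shRNA libraries within both replicate numbers, as were 1985 of the 5376 genes tested, with a median difference of -0.16. None was called in limma, and 1, CCT5, had an unadjusted p under 0.05. CCT5 had NonS values of 137 and 127 and APC shRNA values of 106 and 105, a difference of -0.32 (adjusted p = 0.0815 in limma). CCT8 had NonS values of 108 and 72 and APC shRNA values of 79 and 43. CCT5 was separated by more than 20 units between conditions, whereas CCT8 overlapped, and its difference of -0.59, the largest in size of the subgroup, had a standard error of 0.42 (adjusted p = 0.378 in limma). CCT2 had NonS values of 161 and 147 and APC shRNA values of 138 and 139 (adjusted p = 0.242 in limma). CCT7 had NonS values of 206 and 194 and APC shRNA values of 188 and 170 (adjusted p = 0.269 in limma). These 2 also did not overlap. In them and in CCT5 both APC shRNA libraries were lower, as in 27.5% of all genes tested. CCT5 shares 1757 exonic bp with the antisense gene AC012640.4, and 8.59% of the 50-base stretches of CCT8 occur in its pseudogene CCT8P1.

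The other 4 TRiC subunits overlapped between conditions. TCP1 had NonS values of 115 and 95 and APC shRNA values of 101 and 90, and those of CCT4 were 118 and 105 against 108 and 99. CCT6A had NonS values of 192 and 147 and APC shRNA values of 156 and 127. The adjusted p of these 3 was 0.530, 0.485 and 0.418 in limma. CCT3, the exception in direction, had NonS values of 274 and 256 and APC shRNA values of 290 and 259, with a difference of 0.05 (adjusted p = 0.726 in limma). The subunits occur in equal number in the ring, but their values per library were not equal. CCT3 was the highest and CCT8 the lowest subunit in every library, with a ratio between them of 2.54 and 3.56 under NonS and of 3.67 and 6.02 under APC shRNA. The coefficient of variation over the 8 subunits was 35.0% and 41.4% under NonS and 46.6% and 49.96% under APC shRNA. The spread was widest in APC shRNA replicate II, where CCT8 was lowest. It was wider in APC shRNA replicate I, with CCT8 at 79, than in NonS replicate II, with CCT8 at 72. A link to CCT8 was not tested. The 8 subunits together reached 1311 and 1143 under NonS and 1166 and 1032 under APC shRNA, with overlap.

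Prefoldin, which delivers actin and tubulin to TRiC, had 0 of 6 genes called in limma, 2 with an unadjusted p under 0.05 and a median difference of 0.14, which was -0.044 without APC shRNA replicate II. PFDN5 had NonS values of 139 and 147 and APC shRNA values of 184 and 206. Its conditions were well apart, and its difference was 0.44 (standard error 0.089, interval 0.17 to 0.72, adjusted p = 0.0770 in limma). PFDN1 had NonS values of 41 and 42 and APC shRNA values of 48 and 50, also without overlap, with a difference of 0.23 (adjusted p = 0.0956 in limma). In PFDN5 and PFDN1 both APC shRNA libraries were higher, as in 33.0% of all genes tested. The remaining 4 subunits overlapped. PFDN2 had NonS values of 111 and 93 and APC shRNA values of 93 and 84, and those of VBP1, the third prefoldin subunit, were 53 and 30 against 34 and 27 (adjusted p = 0.341 and 0.475 in limma). PFDN4 had NonS values of 14 and 15 and APC shRNA values of 14 and 22, and those of PFDN6 were 16 and 17 against 16 and 18 (adjusted p = 0.501 and 0.766 in limma). In PFDN4 and PFDN6 replicate I of APC shRNA equalled that of NonS, and at such low values rounding to whole numbers limits what can be resolved. The 6 subunits together reached 374 and 344 under NonS and 389 and 407 under APC shRNA.

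HSPB1 (HSP27), a small heat shock protein that holds unfolded proteins without ATP, had NonS values of 123 and 160 and APC shRNA values of 151 and 168. The conditions overlapped, and the difference was 0.18 (standard error 0.17, interval -0.35 to 0.71, adjusted p = 0.490 in limma). HSF1 itself had NonS values of 50 and 53 and APC shRNA values of 48 and 47. Both APC shRNA values were lower by a few units, with a difference of -0.11 (standard error 0.060, interval -0.30 to 0.07, adjusted p = 0.270 in limma). Genes with a heat shock element core lay on both sides of 0, with DNAJB1 at 0.30, HSPA1B at 0.19, HSPA8 at -0.11 and HSP90AA1 at -0.99, and neither UNC45A nor DNAJA3 is among the 14.

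The difference between replicates was larger than that between conditions in 22 of the 43 tested members (51.2%), compared with 29.2% of all genes tested. Replicate II was below replicate I in both conditions in 26 members (60.5%), compared with 24.0% of all genes tested, and above it in both conditions in 9. In 6 members the mean of replicate II minus replicate I was under -0.5 on the log2(value + 1) scale (13.95%, compared with 4.32% of all genes tested). These were HSP90AA1 (-1.43), HSPH1 (-1.42), HSPA4 (-0.73), CCT8 (-0.72), HSPD1 (-0.64) and VBP1 (-0.56), and each of them also had a negative difference between conditions. With each library left out in turn, the condition difference lay between -1.85 and -0.12 in HSP90AA1, between -1.02 and -0.16 in CCT8 and between -1.07 and -0.38 in HSPD1. It crossed 0 in HSPH1, HSPA4 and VBP1.

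GC content moved with the replicate difference, though not in every member. The longest transcripts of the 6 members named above had a GC content between 38.2% and 45.2%, and the median of the other 37 tested members was 51.1%. Across the 43 members the Spearman correlation of replicate II minus replicate I with GC content was 0.413, and it was 0.299 across 5364 genes tested. The condition difference had a correlation with GC content of 0.276 across the members and 0.240 across the genes tested. These correlations are across genes of the same 4 libraries, which are not independent replicates, and are given as a description. The other 9 tested members in that range of GC content had mean replicate differences between -0.35 (DNAJA1) and 0.14 (DNAJA2). PFDN4, the tested member with the lowest GC content (35.3%), lay below that range and had a mean replicate difference of 0.35, opposite in sign. The part of GC content in the differences between conditions was not tested, and the values after a GC content correction are given with the other alternatives.

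The precision of the member differences varied widely. The distance from the difference to either end of its 95% confidence interval had a median of 0.33 on the log2(value + 1) scale, from 0.16 to 2.56 across members. For STUB1 the interval was -0.25 to 0.07 and for DNAJC7 -0.12 to 0.25, while for HSP90AA1 and HSPH1 it included more than 2-fold changes in both directions. For 1 gene, the exact two-sided permutation test cannot go below p = 0.333 in a design of 2 libraries per condition.

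Chaperone genes outside the 44, a list of 98 genes for other J-domain, HSP70, tubulin-folding, nuclear distribution and mitochondrial quality control factors, gave few calls as well. Of these, 97 were in the tables, 46 were tested, 1 rose and 0 fell in limma (4.33% and 3.70% of all genes tested), and 18 had an unadjusted p under 0.05 (35.6% of all genes tested). SERPINH1 (HSP47), a collagen chaperone of the endoplasmic reticulum, rose from NonS values of 23 and 24 to APC shRNA values of 34 and 37, a difference of 0.57 (adjusted p = 0.0483 in limma). The call was lost with each library left out in turn, as was every call of the table. The median difference of the 46 genes was 0.05. Both APC shRNA libraries were higher in 20 and lower in 16 of them, compared with 33.0% and 27.5% of all genes tested. The difference between replicates was larger than that between conditions in 7 of these 46 genes (15.2%), and how this share compares with that of the 43 members was not tested.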

How the data were processed

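RNA of 4 HT-29 libraries (NonS and APC shRNA, replicates I and II, grouped by the sample labels) was sequenced as single 50-base reads. The authors filtered and trimmed the reads, mapped them with TopHat2 to human genome assembly 38, counted them per gene with htseq-count and GENCODE 29 and ran DESeq2 (1.4.1 in the submitters' processing notes, which name hg19 instead). The paper's methods do not give the strand option of the counting or a step that scales the values. Whole numbers, 1 for each gene in each library, were deposited and are used here as a score of unstated scale, because low genes varied between replicates by 0.474 (NonS) and 0.345 (APC shRNA) times the Poisson variance. Read depth is therefore unknown, and no count model was run. The authors' table of means, fold changes and adjusted p-values was not used, and 0 columns of per-sample values were left out.

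Genes with a mean of at least 10 were compared on log2(value + 1) with limma 3.58.1 in R 4.3.3 (mean-variance trend, no further scaling, Benjamini-Hochberg adjustment over all genes tested), and an adjusted p under 0.05 was called. A difference on this scale understates the change of low genes. Positions, transcript lengths and GC content came from GENCODE 29 (GRCh38), and sequences from RefSeq. Python 3.11.15, pandas 2.3.3, scipy 1.17.1 and matplotlib 3.10.9 were used, and the test was checked on simulated data. The members, gene lists and tests were chosen with earlier results of these data known. All members were named. Full statistics were given for those called (at most 3 per subgroup), for the member with the largest difference in size of a subgroup without calls, and for HSPA1A, HSPA8, HSP90AA1, HSP90AB1, HSPD1, HSPE1, HSPB1 and HSF1, and other statistics were added where the conditions did not overlap. Up to 3 called genes in each direction were named from the 98 other chaperone genes. A marker gene of the cell type check is not reported here.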

Additional observations from a re-analysis of the deposited data

How the results depend on the processing

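Calls among the chaperones depended on the setting. The count of members that rose (1) became 2 with median-of-ratios scaling, equal totals or robust moderation, 3 with the GC content correction and 4 at an adjusted p under 0.1. The study's thresholds, an adjusted p under 0.01 and a fold change over 4, could call no gene in the main fit. Its smallest adjusted p from limma was 0.0423, so the 0 calls there, among members and other chaperone genes, were fixed in advance. Over all genes tested the count that rose went from 233 to 310, 343, 368 and 442 with median-of-ratios scaling, equal totals, robust moderation and the GC content correction. The count that fell (1) became 0 with at least 10 in every library (134 of all genes, compared with 199) and 2 at an adjusted p under 0.1. Neither moved with pseudocounts of 0.1 or 5, no filter, upper-quartile scaling or no mean-variance trend. In the leave-one-out fits no gene of the table was called in limma (1119 to 1330 had an unadjusted p under 0.05), and each lone library was assumed to vary like the other condition's. For other chaperone genes the count that rose (1) was 2 with median-of-ratios, 4 with upper-quartile scaling (336 of all genes) and 5 with equal totals or robust moderation. It was 4 without a filter (952 of 12799 genes), 0 with at least 10 in every library (139 of 4682 genes), 6 with the GC content correction and 7 at an adjusted p under 0.1. A count over all genes was not made at an adjusted p under 0.1. The count that fell (0) was 3 without a filter (515 of 12799 genes), 2 with the GC content correction (460 of 5364 genes) and 5 at an adjusted p under 0.1.

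Same-numbered libraries deviated together (correlation 0.724 over 5376 genes, 0.734 after GC content correction, across genes), but no label ties the numbers to a batch or day. With the number as a block, 2 members rose (ST13 and UNC45A; 9.73% of all genes) and 4 fell (DNAJA3, FKBP4, HSPD1 and TRAP1; 9.30%), HSPD1 with an adjusted p of 0.0474 in limma. With block and GC content correction, 7 rose (22.7% of all genes) and 12 fell (23.4%), UNC45A and DNAJA3 among them. For other chaperone genes the block gave 3 risen and 2 fallen, and 9 and 13 with the correction.

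Medians of subgroups moved too. The GC content correction gave 0.053 for HSP70 and HSP110, 0.23 for J-domain proteins, 0.017 for HSP70 co-chaperones and -0.092 for HSPB1 and HSF1, and J-domain proteins gave 0.11 with upper-quartile scaling and 0.12 with equal totals or a pseudocount of 5 (0.1165 and 0.1205). With any 1 library dropped, medians ranged from -0.28 to 0.11 (HSP70 and HSP110), 0.16 to 0.25 (J-domain), 0.034 to 0.18 (HSP70 co-chaperones), -0.24 to -0.074 (TRiC), -0.15 to 0.090 (HSP90 group), -0.044 to 0.19 (prefoldin) and -0.47 to -0.26 (mitochondrial). Differences that turned sign were not called. With the GC content correction, alone or with the block, these were HSPH1 (0.082), PTGES3 (0.092), CCT3 (-0.0040) and PFDN6 (-0.047). With 1 library left out they ranged from -0.95 to 0.021 for HSPA4, -0.28 to 0.059 for HSPA8, -0.88 to 0.56 for HSPH1, -0.15 to 0.24 for DNAJA1, -0.16 to 0.077 for HSP90AB1, -0.20 to 0.075 for STIP1, -0.027 to 0.17 for AHSA1, -0.37 to 0.25 for PTGES3, -0.27 to 0.0051 for TCP1, -0.032 to 0.13 for CCT3, -0.047 to 0.57 for PFDN4, -0.041 to 0.12 for PFDN6, -0.79 to 0.014 for VBP1 and -0.0065 to 0.37 for HSPB1. The causes were not tested. The comparison of edgeR with DESeq2 was not run, since the values are not counts. Unknown depth, whole-number rounding and 2 libraries per condition limit every value.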
